A study of Mus musculus with 5 samples.

Results

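This account covers 7 mouse genes, 5 Siglec receptors (Siglecf, Siglece, Cd33, Siglec1 and Cd22) and 2 genes best known from eosinophils (Ccr3 and Ear2). They were found by gene symbol among the 19127 genes of the deposited table, and all 7 were listed. The choice was made with differences between the groups already known, so those differences are given as descriptions without a test. The samples were neutrophils sorted from blood on Ly6G after red cell lysis, from male mice of 7 to 10 weeks at Zeitgeber time 13, 20 h on the wall clock. In 2 libraries the genotype was BMALf/f x Mrp8Cre (numbers 2 and 3, called Bmal1-labelled), a floxed allele of Bmal1 (Arntl), the activating factor of the circadian clock. In 3 libraries it was CXCR4f/f x Mrp8Cre (numbers 1, 2 and 3, called Cxcr4-labelled), a floxed allele of the receptor that holds neutrophils in bone marrow. Both groups carried the Mrp8 promoter's Cre, which acts mainly in neutrophils, and no mouse without it was analysed here. Single libraries are written as Bmal1-labelled 2 or Cxcr4-labelled 3. The labels do not say whether each library came from its own mouse, so the spread between libraries may be partly technical.

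Siglecs are cell surface lectins that bind sialic acid, the sugar that caps most glycoproteins. Many of them carry tyrosine motifs in the cytoplasmic tail that recruit the phosphatases SHP-1 and SHP-2 and dampen activation. Siglec-F marks mouse eosinophils and alveolar macrophages, Siglec-E is an inhibitory receptor of neutrophils and other myeloid cells, and mouse CD33 is found on granulocytes. Sialoadhesin, the product of Siglec1, belongs to macrophages, and CD22 to B cells. CCR3 is the eotaxin receptor through which eosinophils migrate, and Ear2 encodes a ribonuclease of the eosinophil-associated family.

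Siglecf, Cd33 and Siglece lie close together in the Siglec cluster of chromosome 7. Their upstream sequences are shown because Siglecf gave another pattern over the libraries than Cd33 and Siglece, which ran together. Each run is the 250 bases before the RefSeq start (GRCm38.p6), read 5′ to 3′ on the gene's strand, at chr7:43351091-43351340 (plus) for Siglecf, chr7:43533172-43533421 (minus) for Cd33 and chr7:43660162-43660411 (minus) for Siglece. For Cd33 the RefSeq start lies inside the GENCODE gene. Capitals mark the longest run that the Siglecf and Cd33 sequences share.
Siglecf: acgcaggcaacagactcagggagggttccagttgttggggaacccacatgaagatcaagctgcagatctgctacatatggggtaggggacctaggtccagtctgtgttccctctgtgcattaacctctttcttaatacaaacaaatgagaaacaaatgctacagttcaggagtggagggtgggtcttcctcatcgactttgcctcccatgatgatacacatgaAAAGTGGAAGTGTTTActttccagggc
Cd33: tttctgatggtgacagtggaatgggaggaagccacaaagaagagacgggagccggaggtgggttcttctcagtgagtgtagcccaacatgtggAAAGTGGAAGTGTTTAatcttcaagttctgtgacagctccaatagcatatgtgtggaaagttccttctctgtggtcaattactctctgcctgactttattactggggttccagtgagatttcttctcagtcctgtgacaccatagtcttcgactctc
Siglece: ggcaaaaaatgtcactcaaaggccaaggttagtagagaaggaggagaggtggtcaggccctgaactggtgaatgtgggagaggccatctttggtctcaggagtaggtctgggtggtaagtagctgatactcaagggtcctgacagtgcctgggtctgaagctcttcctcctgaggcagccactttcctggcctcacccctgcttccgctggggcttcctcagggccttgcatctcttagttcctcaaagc

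The RefSeq promoter table held a sequence for 6 of the 7 genes, all but Siglec1. The shared run of Siglecf and Cd33 was 16 bases long and began at position -27 in Siglecf and -157 in Cd33, counting the base before the start as -1. Among 32851 promoter windows of this length, read on both strands, it occurred in 2, those of these genes. Between other pairs of the 6 genes the longest shared run was 8 to 10 bases. The run holds GGAAGTG, whose GGAA core is that of binding sites for ETS factors such as PU.1 of myeloid cells. GGAAGTG was in 8.55% of all windows. Of the 6 genes Siglecf and Cd33 held it once each and the other 4 did not. Of the GATA forms, TGATAA (7.94% of all windows) was in none of the 6 and AGATAA (9.99%) was in Ccr3 only, at position -30. The E-box CACGTG, the site of the BMAL1 and CLOCK pair, was in 6.02% of all windows and in none of the 6. The motifs were chosen after the sequences and values were seen, both strands were searched, and a match or its absence describes these letters only.

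The recovered depth was 2869625 and 4058914 reads in Bmal1-labelled 2 and 3, and 356872 to 9101826 in the Cxcr4-labelled ones, lowest in library 1. A value is a normalised read count as deposited, and 3 reads, taken as the floor, equal 0.902 and 0.673 in Bmal1-labelled 2 and 3. They equal 6.46, 0.633 and 0.351 in Cxcr4-labelled 1, 2 and 3, so low values in library 1 are weakly determined. Neutrophil markers summed to 1.07% and 0.741% of the column in Bmal1-labelled 2 and 3. In Cxcr4-labelled 1, 2 and 3 they summed to 2.17%, 0.447% and 0.0402%, so library 3 stood apart. Ly6g, the sort marker, had 21 and 23 reads in Bmal1-labelled 2 and 3, and 14, 0 and 9 in Cxcr4-labelled 1, 2 and 3. Endothelial markers summed to 0.537% and 1.18% in Bmal1-labelled 2 and 3 and 0.741%, 0.938% and 1.76% in the Cxcr4-labelled ones. As the check of the labels, Cxcr4 had values of 398.6 and 127.8 in Bmal1-labelled 2 and 3, and 15.1, 72.2 and 4.80 in the Cxcr4-labelled ones, without overlap. Arntl had 4.81 and 27.6 in Bmal1-labelled 2 and 3, and 15.1, 1.90 and 1.05 in the Cxcr4-labelled ones, so it was not lower where its deletion is labelled, and directions here follow the labels only.

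Siglecf (ENSMUSG00000039013, GRCm38 chromosome 7, 43351341 to 43359531, plus strand, protein-coding) was detected in the Bmal1-labelled libraries only. It had values of 24.1 and 16.4 in Bmal1-labelled 2 and 3, from 80 reads (95% exact Poisson interval 63.4 to 99.6) and 73 reads (57.2 to 91.8). All 3 Cxcr4-labelled libraries had 0 reads. At a count of 0 the floor of 3 reads allows a value of up to 6.46, 0.633 and 0.351 in Cxcr4-labelled 1, 2 and 3. The Bmal1-labelled mean was 20.2 ± 5.43 (SD, n = 2). The groups therefore did not overlap. The measured Bmal1-labelled mean was 8.15-fold the mean of the Cxcr4-labelled floors of 3 reads. This figure takes no counting error on the Bmal1-labelled side. The fitted log2 difference was 4.38, which depends on the pseudocount. The reads carry no molecular identifiers and so are not independent molecules, and every interval and floor here covers counting error only. Siglecf passed the filter on low values through the Bmal1-labelled group alone. The pattern of 3 reads or more in both Bmal1-labelled libraries and none in the other 3 was shared by 0.936% of the 14632 genes tested. In 0.206% of the 50-base windows of its transcripts the sequence also occurred in another gene, mostly Siglecg.

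**Figure D1:**
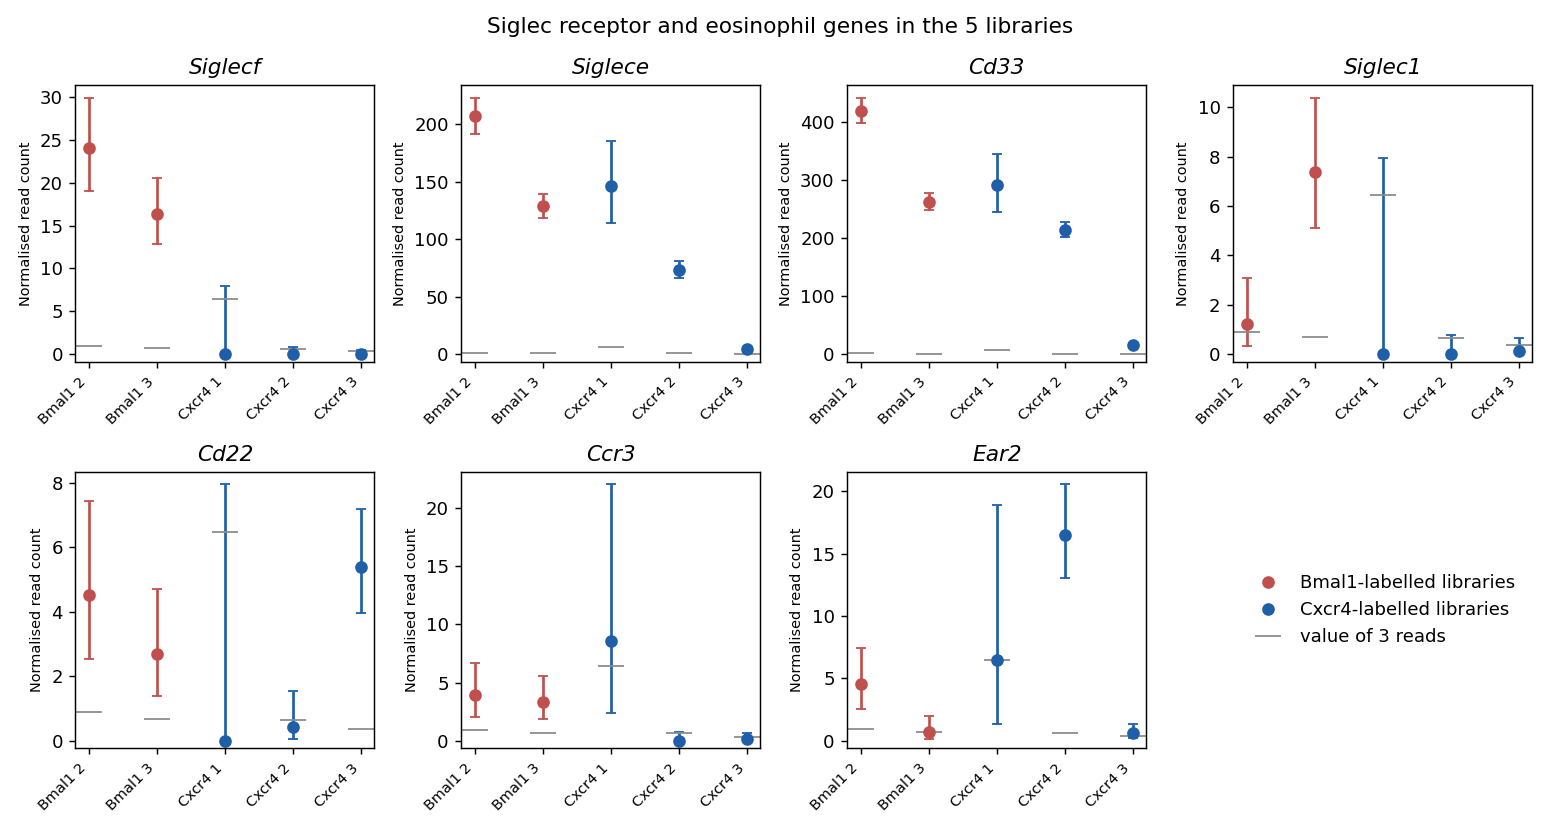
Normalised read count of each gene (vertical axis, linear, a scale of its own per gene) in the Bmal1-labelled (red) and Cxcr4-labelled (blue) libraries. Points are single libraries, bars are 95% exact Poisson intervals of the reads, and grey dashes mark the value of 3 reads. Siglecf stands at 24.1 and 16.4 in Bmal1-labelled 2 and 3 and at 0 in the Cxcr4-labelled ones, while Siglece and Cd33 overlap between groups.

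Siglece and Cd33 were the abundant members and ran together over the libraries. Siglece (chromosome 7, 43651070 to 43660161, minus strand) had values of 207.1 and 128.5 in Bmal1-labelled 2 and 3, from 689 and 573 reads. In Cxcr4-labelled 1, 2 and 3 it had 146.4, 73.3 and 3.98, from 68, 347 and 34 reads. Cxcr4-labelled 1 lay between the Bmal1-labelled libraries, so the groups overlapped, and library 3 was far below all others. Cd33 (chromosome 7, 43524216 to 43544428, minus strand) had values of 418.5 and 261.9 in Bmal1-labelled 2 and 3, from 1392 and 1168 reads. In Cxcr4-labelled 1, 2 and 3 it had 290.6, 213.9 and 15.2, from 135, 1013 and 130 reads. The order of the 5 libraries was the same for both genes, Bmal1-labelled 2, Cxcr4-labelled 1, Bmal1-labelled 3, Cxcr4-labelled 2 and Cxcr4-labelled 3. The means of Siglece were 167.8 ± 55.6 (SD, n = 2) in the Bmal1-labelled group and 74.5 ± 71.2 (SD, n = 3) in the Cxcr4-labelled group. For Cd33 they were 340.2 ± 110.7 (SD, n = 2) and 173.2 ± 142.1 (SD, n = 3) in the same groups. On the log2(value + 1) scale the Bmal1-labelled minus Cxcr4-labelled difference was 2.11 (SE 1.25) for Siglece and 1.72 (SE 1.11) for Cd33. Without Cxcr4-labelled 3, the library lowest in neutrophil markers, these differences were 0.65 and 0.41. In bulk samples fewer cells of a type and less RNA per cell cannot be told apart.

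Ratios of reads within a library show how far these genes move together whatever the scaling. Siglece had 49.5 and 49.1 reads per 100 Cd33 reads in Bmal1-labelled 2 and 3. The ratio was 50.4, 34.3 and 26.2 per 100 in Cxcr4-labelled 1, 2 and 3. That of library 2 (95% exact interval 30.2 to 38.7) and that of library 3 (17.4 to 38.4) lay below the intervals of both Bmal1-labelled libraries, which began at 45.1 and 44.3. Siglecf had 11.6 and 12.7 reads per 100 Siglece reads in Bmal1-labelled 2 and 3, with intervals of 9.09 to 14.7 and 9.85 to 16.3. Against this, 3 reads allow up to 4.41, 0.865 and 8.82 per 100 in Cxcr4-labelled 1, 2 and 3. The lower of the Bmal1-labelled ratios was 13.4-fold the ratio that 3 reads would give in Cxcr4-labelled 2. The same figure was 2.63-fold for library 1 and 1.32-fold for library 3, which had 68 and 34 Siglece reads. These figures take no counting error on the Bmal1-labelled side or in the Siglece reads, so they are not bounds. The 95% exact intervals of Cxcr4-labelled 1 and 2 lay below those of both Bmal1-labelled libraries. That of Cxcr4-labelled 3 overlapped both, so its few Siglece reads leave Siglecf there almost undetermined.

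Set against the summed reads of the neutrophil markers, Cd33 had 45.1 and 38.8 reads per 1000 in Bmal1-labelled 2 and 3. It had 17.4, 48.8 and 35.5 per 1000 in Cxcr4-labelled 1, 2 and 3. Siglece had 22.3 and 19.0 per 1000 in Bmal1-labelled 2 and 3, and 8.78, 16.7 and 9.30 in Cxcr4-labelled 1, 2 and 3. On this scale library 3 no longer stood apart for Cd33 and library 1 was lowest. For Siglece libraries 1 and 3 were within counting error of each other. Genes of the list ordered the libraries differently, so these ratios depend on the list. Ltf, picked after its values were seen, had 21 and 14 reads in Bmal1-labelled 2 and 3, and 399, 108 and 134 in Cxcr4-labelled 1, 2 and 3. Csf3r had 7781 and 5967, and 418, 2100 and 338, in the same libraries. Siglecf had 2.59 and 2.43 per 1000 in the Bmal1-labelled libraries, where 3 reads allow 0.387, 0.144 and 0.820 in Cxcr4-labelled 1, 2 and 3.

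**Figure D2:**
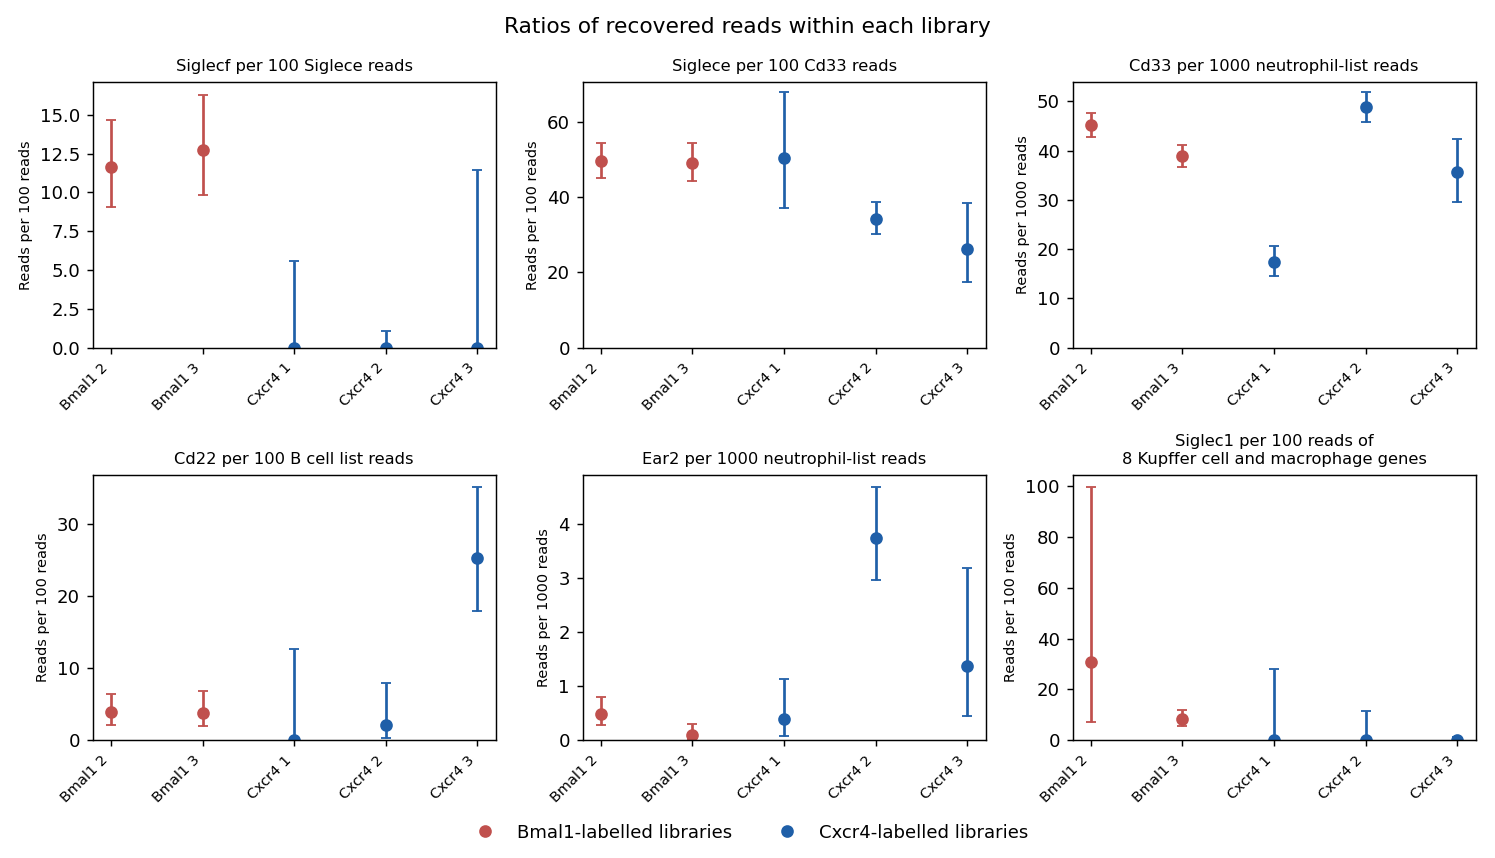
Recovered reads of 1 gene per 100 or per 1000 reads of another gene or list (vertical axes, from 0) in the Bmal1-labelled (red) and Cxcr4-labelled (blue) libraries. Points are single libraries and bars are 95% exact intervals that cover counting error only. Siglece per 100 Cd33 reads spans 26.2 to 50.4 over all libraries, while Siglecf per 100 Siglece reads is 11.6 and 12.7 in Bmal1-labelled 2 and 3 and 0 in the Cxcr4-labelled ones.

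Siglec1, the receptor of macrophages, was above the floor of 3 reads in the Bmal1-labelled libraries only. Siglec1 (chromosome 2, 131069220 to 131086765, minus strand) had 4 and 33 reads in Bmal1-labelled 2 and 3, values of 1.203 and 7.40. It had 0, 0 and 1 read in Cxcr4-labelled 1, 2 and 3, values of 0, 0 and 0.117. The measured values did not overlap between groups, but the 0 of Cxcr4-labelled 1 has an upper limit of 7.94, above both Bmal1-labelled values. Siglec1 passed the filter on low values through the Bmal1-labelled group alone. The 4 reads of Bmal1-labelled 2 have an interval of 1.09 to 10.2, and most of the signal came from Bmal1-labelled 3. The log2 difference was 2.05 (SE 0.88), and 1.09 without that library. Without Bmal1-labelled 2 it was 3.02. Siglec1 was read beside 8 other macrophage genes, C1qa, C1qb, C1qc, Vsig4, Clec4f, Timd4, Cd163 and Cd5l, a set picked from the macrophage list after the values were seen. These had 13 and 395 reads in Bmal1-labelled 2 and 3, and 15, 34 and 476 in Cxcr4-labelled 1, 2 and 3. Siglec1 had 8.35 reads per 100 of theirs in Bmal1-labelled 3 (interval 5.67 to 11.9) and 0.210 in Cxcr4-labelled 3 (0.00531 to 1.18). These 2 intervals do not overlap, with 1 library on each side and no replicate check. Other genes of the macrophage list ordered the libraries differently. Csf1r, for the receptor of the macrophage growth factor M-CSF, had 776 and 521 reads in Bmal1-labelled 2 and 3, and 52, 229 and 236 in Cxcr4-labelled 1, 2 and 3. The ratio of Siglec1 therefore depends on the genes it is set against.

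Cd22, the receptor of B cells (chromosome 7, 30865402 to 30880342, minus strand), had 15 and 12 reads in Bmal1-labelled 2 and 3, values of 4.51 and 2.69. It had 0, 2 and 46 reads in Cxcr4-labelled 1, 2 and 3, values of 0, 0.422 and 5.39. The highest and the lowest library were both Cxcr4-labelled, and the log2 difference of 1.11 (SE 1.07) was about as large as its error. Without Cxcr4-labelled 3 the difference was 1.92, and 0.58 without Cxcr4-labelled 1. B cell markers summed to 390 and 314 reads in Bmal1-labelled 2 and 3, and to 31, 94 and 182 in Cxcr4-labelled 1, 2 and 3. Cd22 was 3.85 and 3.82 per 100 of these reads in Bmal1-labelled 2 and 3. The ratio was 0, 2.13 (interval 0.254 to 7.90) and 25.3 (17.9 to 35.1) in Cxcr4-labelled 1, 2 and 3. Ighm gave 310 and 181 of the list's reads in Bmal1-labelled 2 and 3, and 19, 23 and 20 in Cxcr4-labelled 1, 2 and 3. The ratio of Cd22 therefore depends on the list, and much of it on this gene. The antisense gene Gm29439 overlaps exons of Cd22 and had 17 reads in Bmal1-labelled 2 and 0 in the other libraries. The strand setting of the counting is not given in the sources used here, so reads of the pair may not be separable, and 7.84% of the 50-base windows of Cd22 transcripts occurred in other genes.

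The eosinophil pair overlapped between groups, unlike Siglecf. Ccr3 (chromosome 9, 124021972 to 124031689, plus strand) had 13 and 15 reads in Bmal1-labelled 2 and 3, values of 3.91 and 3.36. It had 4, 0 and 1 read in Cxcr4-labelled 1, 2 and 3, values of 8.61, 0 and 0.117. The value of library 1 was the highest of all and rests on 4 reads, with an interval of 2.35 to 22.0 that covers both Bmal1-labelled values. The log2 difference was 1.07 (SE 1.19), and 2.13 without that library. It was 0.50 without Cxcr4-labelled 2 and 0.58 without Cxcr4-labelled 3. Per 1000 neutrophil-marker reads Ccr3 had 0.422 and 0.498 in Bmal1-labelled 2 and 3, and 0.516, 0 and 0.273 in Cxcr4-labelled 1, 2 and 3.

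Ear2 (chromosome 14, 44102654 to 44103534, plus strand) was the member with a negative difference. It had 15 and 3 reads in Bmal1-labelled 2 and 3, values of 4.51 and 0.673. In Cxcr4-labelled 1, 2 and 3 it had 3, 78 and 5 reads, values of 6.46, 16.5 and 0.586. Cxcr4-labelled 2 was the highest and library 3 the lowest, so the Bmal1-labelled libraries lay inside the range of the other group. The log2 difference was -0.96 (SE 1.26). It was -0.18 without Cxcr4-labelled 2, -0.10 without Bmal1-labelled 3, -1.82 without Bmal1-labelled 2 and -1.91 without Cxcr4-labelled 3. Ear2 belongs to a family of near-identical ribonuclease genes, and 41.5% of the 50-base windows of its transcripts occurred in other genes, with Ear10 alone sharing 26.0% of the windows, so its value is uncertain.

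Of the 7 members, 2 (Siglecf and Siglec1) had values that did not overlap between groups and were higher in the Bmal1-labelled libraries. Of all genes tested 13.6% did so. Both members passed the filter on low values through the Bmal1-labelled group alone, and the 0 of Siglec1 in Cxcr4-labelled 1 is weakly determined. No member was lower without overlap, against 5.22% of all genes. All 7 passed the filter on low values, 6 had positive differences and 1 a negative one, with a median of 1.72. Of all 14632 genes tested, 8079 had a positive difference, and their median was 0.107 over all genes tested. By limma 0% of all genes tested had an adjusted p under 0.05, which leaves 0 of 14632, with 612 at an unadjusted p under 0.05. edgeR on the recovered reads also called 0, with 524 at an unadjusted p under 0.05, and DESeq2 called 13. Since the members were picked with these differences known, their counts support nothing about the groups.

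**Figure D3:**
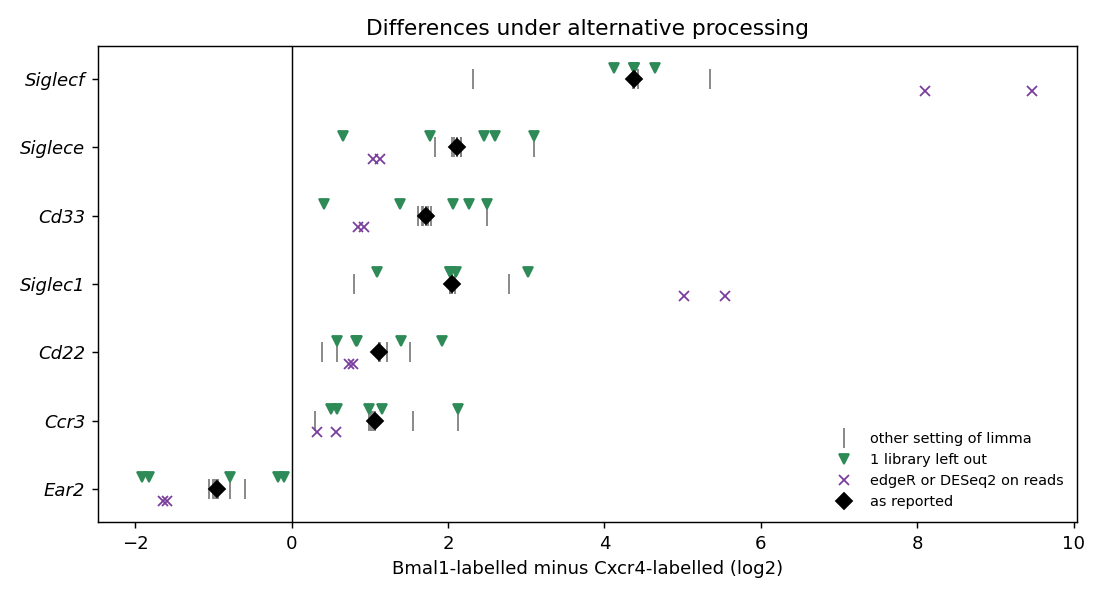
Difference of each gene between Bmal1-labelled and Cxcr4-labelled libraries (horizontal axis, log2 scale, positive where higher in Bmal1-labelled) as reported (black diamond) and under the alternatives (grey bars, limma with another setting; green triangles, 1 library left out; purple crosses, edgeR or DESeq2). All 7 genes keep their sign over the alternatives that gave a value, a sign fixed in advance for Siglecf by its 0 reads in every Cxcr4-labelled library. The lowest points of Siglece and Cd33, at 0.65 and 0.41, are those without Cxcr4-labelled 3.

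Levels were compared between genes as value per kilobase of merged exons (GENCODE M21). The mean level per kilobase in the Bmal1-labelled group was 90.8 for Siglece, 43.8 for Cd33, 7.24 for Siglecf, 3.60 for Ear2, 1.11 for Ccr3, 0.714 for Cd22 and 0.602 for Siglec1. In the Cxcr4-labelled group it was 40.3 for Siglece, 22.3 for Cd33, 10.9 for Ear2, 0.889 for Ccr3, 0.384 for Cd22, 0.0055 for Siglec1 and 0 for Siglecf. By this measure Siglece stood above Cd33 in 5 of 5 libraries, and in Cxcr4-labelled 3 their levels of 2.15 and 1.96 were within counting error. This order rests on merged exons of 1849 bases for Siglece and 7771 for Cd33, since Cd33 had more reads in every library. The lengths of the transcripts present were not measured, and shorter ones would raise a level per kilobase. Siglec1, Ccr3 and Ear2 were not separable in Bmal1-labelled 3, at levels per kilobase of 1.04, 1.03 and 0.936. In each Bmal1-labelled library Siglecf came next after Siglece and Cd33, although in Bmal1-labelled 2 its level per kilobase of 8.62 (6.84 to 10.7) overlapped the 6.27 (3.51 to 10.3) of Ear2. In Cxcr4-labelled 1 and 2 Ear2 came next after them, and in Cxcr4-labelled 2 its level per kilobase of 22.9 (18.1 to 28.6) overlapped the 27.5 (25.9 to 29.3) of Cd33. In Cxcr4-labelled 3 that place was taken by Cd22, whose 1.07 per kilobase was within counting error of the 0.814 of Ear2.

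Other genes of the Siglec family were low. Siglecg, an inhibitory receptor of B cells, had 19 and 19 reads in Bmal1-labelled 2 and 3, and 7, 1 and 1 in Cxcr4-labelled 1, 2 and 3. Its mean value was 4.99 in the Bmal1-labelled and 5.13 in the Cxcr4-labelled group, while the log2 difference was 1.09 (SE 1.33), so the sign depends on the scale. Mag, of myelin, had at most 2 reads in a library, and Siglech, of plasmacytoid dendritic cells, at most 1. Siglec15 is not analysed here.

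Genes on which Siglec signalling depends were higher as group means in the Bmal1-labelled libraries, with none past the test. Of the 13 signalling partners tested 0 were called, and all 13 had positive differences with a median of 1.12. A positive difference was found for 8079 of all 14632 genes tested. Of the partners 5 did not overlap between groups, all higher in Bmal1-labelled libraries, where 13.6% of all genes tested did so. Without Cxcr4-labelled 3, 12 of 13 were positive with a median of 0.93. Ptpn6, which encodes the phosphatase SHP-1, averaged 282.8 in the Bmal1-labelled and 109.8 in the Cxcr4-labelled group. Tyrobp, for the adaptor DAP12 that pairs with activating receptors, averaged 368.1 in the Bmal1-labelled and 151.5 in the Cxcr4-labelled group. The kinase genes Syk (378.7 in Bmal1-labelled, 120.7 in Cxcr4-labelled), Fgr (300.0 in Bmal1-labelled, 103.3 in Cxcr4-labelled) and Lyn (260.0 in Bmal1-labelled, 145.9 in Cxcr4-labelled) did not overlap between groups. Of the neutrophil markers, 9 of 13 tested differences were positive on the log2 scale, with a median of 0.75. With edgeR and with DESeq2 3 of 13 neutrophil markers were positive, while all 13 signalling partners were. As a group mean S100a9 was lower in the Bmal1-labelled libraries (2473.8) than in the Cxcr4-labelled ones (2954.0), and Csf3r was higher (1838.6 and 460.9). Whether the 2 lists moved together thus depends on the measure. Without Cxcr4-labelled 3, 4 of 13 neutrophil markers were positive with a median of -0.63, and without Cxcr4-labelled 1 their median was 2.15.

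Genes that make, attach or remove sialic acid, the ligand of these receptors, had differences in both directions. Of 25 tested 0 were called, 16 were positive and 9 negative, and the median was 0.27, or 0.55 without Bmal1-labelled 3 and 0.11 without Cxcr4-labelled 2. St8sia4, a polysialyltransferase, averaged 239.4 in the Bmal1-labelled and 87.4 in the Cxcr4-labelled group, and the sialyltransferase gene St3gal1 183.3 and 176.8 in the same groups. St8sia6, an alpha-2,8-sialyltransferase picked after its values were seen, had 0 reads in both Bmal1-labelled libraries and 3, 48 and 6 in Cxcr4-labelled 1, 2 and 3. It did not overlap between groups, in the opposite direction to Siglecf, and passed the filter on low values through the Cxcr4-labelled group alone. Of all genes tested 5.22% were lower in the Bmal1-labelled libraries without overlap. The list also held 1 gene that was higher there without overlap, as were 13.6% of all genes tested. This was St3gal4, also picked after its values were seen, which averaged 41.2 in the Bmal1-labelled and 25.1 in the Cxcr4-labelled group.

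Markers of eosinophils other than the members were read as a list. Of 15 markers 8 were listed, and of the 5 tested 0 were called, 4 were positive and 1 was negative, with a median of 0.74. The median was 0.026 without Cxcr4-labelled 1, 1.23 without Bmal1-labelled 3 and 1.13 without Bmal1-labelled 2. Il5ra, for the interleukin-5 receptor that defines the lineage, had 3 reads in Bmal1-labelled 2 and 0 in the other libraries. Ear1 had 2 reads in Bmal1-labelled 3 and 0 elsewhere, and Alox15 had 0 reads in both Bmal1-labelled libraries and 1, 0 and 3 in Cxcr4-labelled 1, 2 and 3. These 3 genes were at or near 0 in every library, while Ccr3, with its 13 and 15 reads in Bmal1-labelled 2 and 3, was not. The part of eosinophils in the values of Siglecf was not tested. Prg2, Prg3 and Epx, which encode the main granule proteins, are not analysed here. The list summed to 0.0233% and 0.0119% of the column in Bmal1-labelled 2 and 3, and to 0.0120%, 0.0086% and 0.00096% in Cxcr4-labelled 1, 2 and 3. Most of that sum, except in Cxcr4-labelled 3, was Pira2, an activating receptor also found on neutrophils and from a family of close copies. Pira2 had 598 and 410 reads in Bmal1-labelled 2 and 3 and 26, 310 and 26 in the Cxcr4-labelled ones. In Cxcr4-labelled 3 Ptger4 had 46 of the list's 87 reads. Gata1, the factor needed to form eosinophils, had 12 and 0 reads in Bmal1-labelled 2 and 3, and 0, 31 and 0 in Cxcr4-labelled 1, 2 and 3. Cebpe, a factor of granulocyte maturation, had 33 and 26 reads in Bmal1-labelled 2 and 3, and 10, 1 and 1 in Cxcr4-labelled 1, 2 and 3.

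Alveolar macrophages are the other cells known for Siglec-F. Their 9 listed markers had 3 positive and 6 negative differences (median -0.54, 0 called), but 5 positive and a median of 0.58 without Bmal1-labelled 3. The median was -0.95 without Cxcr4-labelled 3, -0.30 without Cxcr4-labelled 1 and -0.19 without Cxcr4-labelled 2. The markers summed to 0.0469% and 0.0317% of the column in Bmal1-labelled 2 and 3. In Cxcr4-labelled 1, 2 and 3 they summed to 0.0765%, 0.0510% and 0.0229%, and the range of the Bmal1-labelled sums lay within that of the Cxcr4-labelled ones. Car4 and Fabp4 on this list are also endothelial genes. Pparg, the factor that specifies alveolar macrophages, had 2 and 1 reads in Bmal1-labelled 2 and 3 and 9, 2 and 55 in Cxcr4-labelled 1, 2 and 3. Chil3 had 195 and 25 reads in Bmal1-labelled 2 and 3 and 40, 207 and 44 in the Cxcr4-labelled ones. Itgax, for the integrin CD11c of macrophages and dendritic cells, had 489 and 427 reads in Bmal1-labelled 2 and 3 and 9, 182 and 12 in the Cxcr4-labelled ones. Its values did not overlap between groups, with a log2 difference of 3.26. The part of these cells in the values of Siglecf was not tested either.

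**Figure D4:**
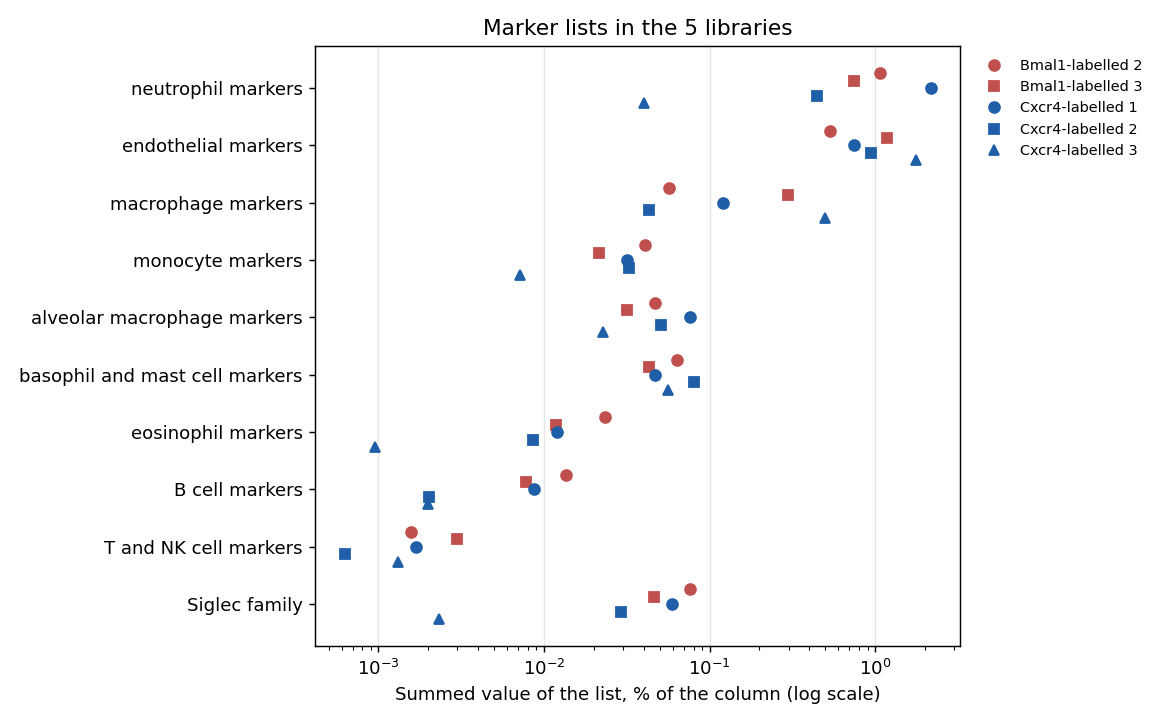
Summed value of each marker list as a percentage of the column (horizontal axis, log scale) in the Bmal1-labelled (red) and Cxcr4-labelled (blue) libraries, 1 point per library. Cxcr4-labelled 3 is lowest for the neutrophil list (0.0402%) and the Siglec family (0.0023%), and highest for the endothelial list (1.76%).

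The other lists were read for cells that the sort could have held. Beside their counts of signs, 8079 of all 14632 genes tested had a positive difference. Genes of a list were read in the same 5 libraries, so their signs are not independent. Of the basophil and mast cell genes 3 were tested, 1 was positive and 0 were called. Without Bmal1-labelled 3 or without Cxcr4-labelled 2, 2 were positive. Hdc, the positive one, had 852 and 905 reads in Bmal1-labelled 2 and 3, and 76, 879 and 376 in Cxcr4-labelled 1, 2 and 3. In the same order Gata2 had 259 and 110, and 23, 1553 and 62. Kit had 722 and 734, and 69, 1294 and 4636. Fcer1a had 0 reads in every library. Ms4a2 had 2 and 6 in Bmal1-labelled 2 and 3 and 0 in the others. Monocyte markers had 8 of 8 tested differences positive (0 called), with a median of 1.02, or 1.71 without Cxcr4-labelled 1 and 0.68 without Cxcr4-labelled 3, and Ccr2 averaged 15.3 in the Bmal1-labelled and 4.89 in the Cxcr4-labelled group. Macrophage markers had 6 of 14 positive (median -0.03, 0 called), and this direction rested on single libraries. It was 12 of 14 (median 1.30) without Bmal1-labelled 2, 5 of 14 (median -1.46) without Bmal1-labelled 3 and 12 of 14 (median 0.48) without Cxcr4-labelled 3. Without Cxcr4-labelled 1 it was 9 of 14 (median 0.43), and without Cxcr4-labelled 2 it was 6 of 14 (median -0.55). Adgre1, for F4/80, averaged 44.3 in the Bmal1-labelled and 7.53 in the Cxcr4-labelled group without overlap. Of all genes tested 13.6% were higher in this way. F4/80 is also found on eosinophils. Of the macrophage markers 8 of 14 had negative differences. Among them Mrc1 averaged 1115.8 in the Bmal1-labelled and 1717.5 in the Cxcr4-labelled group, and Mertk 187.8 and 400.4. B cell markers had 6 of 9 positive (median 0.83, and 0.38 without Cxcr4-labelled 2, 0 called), and T and NK cell markers summed to at most 0.0030% of a column. Plasmacytoid dendritic cell markers had 2 of 4 tested differences positive (0 called). Endothelial markers had 12 of 12 tested differences negative (median -0.48, 0 called). The count of positive ones was 4 of 12 without Bmal1-labelled 2, and the median was -0.87 without Cxcr4-labelled 1, -0.20 without Cxcr4-labelled 2 and -0.25 without Cxcr4-labelled 3. The part of all these cells in the values of Siglecf was not tested. Of the genes for eosinophil growth and chemotaxis, 4 of 5 tested were positive with 0 called (median 1.74, and 0.78 without Cxcr4-labelled 3). Csf2rb, for the shared beta chain of the IL-3, IL-5 and GM-CSF receptors, averaged 227.2 in the Bmal1-labelled and 77.2 in the Cxcr4-labelled group.

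For each gene the 3 most similar profiles were sought among 12454 genes, by the root mean square difference of log2 values over the 5 libraries, each profile centred on its own mean. Nearest to Siglecf were Rpl17, a ribosomal gene with pseudogene copies that may share its reads (0.36), Slc24a1 (0.46) and Bri3bp (0.48), with at most 3 reads in any Cxcr4-labelled library. The genes nearest to Siglece were closer, Rab11fip1 (0.14), Selplg, for the selectin ligand PSGL-1 (0.18), and Ncf1, for a subunit of the neutrophil NADPH oxidase (0.20). Those nearest to Cd33 were Cfp, for properdin (0.14), Lilra6 (0.16) and Pstpip1 (0.16). For Siglec1 they were Rhbdd3, Adam4 and Fam229b (0.07 to 0.11), each resting on 27 to 34 reads in Bmal1-labelled 3. For Cd22 they were Iah1, Dcaf10 and Tmem203 (0.14 to 0.19), and for Ccr3 Tgm1, Trim17 and Lrrc18 (0.08 to 0.16). Those of Ear2 were Cx3cl1, the fractalkine gene (0.13), Morn3 (0.17) and Sox13 (0.19), all highest in Cxcr4-labelled 2. Each profile has 5 points, many of them near the floor, and the likeness is a description.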

How the data were processed

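RNA was sequenced in 5 libraries, 2 Bmal1-labelled and 3 Cxcr4-labelled. Per the labels' protocols, it was amplified with a single-cell kit before Illumina library preparation. RSEM 1.2.3, cutadapt, CASAVA 1.8.2 and GRCm38 appear in the submitters' processing notes, without their roles. How the counts were normalised, with which annotation and strand setting, is not given in the sources used here, nor is any filter on genes. What the authors deposited is normalised read counts per gene, a signal that is never negative. Dividing by a library's smallest positive value gave whole reads, within 0.01, for 100% of its values. Recovered totals were 2869625 and 4058914 in the Bmal1-labelled libraries and 356872, 4646391 and 9101826 in the Cxcr4-labelled ones.

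Symbols came from GENCODE M21 (18847 of 19127 identifiers matched). limma 3.58.1 (R 4.3.3) with an intensity trend was fitted to log2(value + 1) after a filter at a mean CPM of 1 that left 14632 genes, two-sided, with Benjamini-Hochberg adjustment at 0.05. Differences on this scale understate those of low genes. edgeR 4.0.16 and DESeq2 1.42.0 were run on the recovered reads and called 0 and 13 genes, and all 3 tools were tested on simulated data. Intervals are exact at 95% (SciPy 1.17.1). The genes, lists, tests and alternatives were chosen with earlier results of these data known. The naming rule took all 7 genes, both targeted genes, the 3 nearest profiles of each gene, and per list up to 6 detected genes by mean value. Genes outside it (such as Il5ra, Ear1, Fcer1a, Ly6g, Mag, Siglech, St8sia6 and the complement and Kupffer cell genes set beside Siglec1) were named after their values were seen. A marker gene outside the 7 is not reported here.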

Additional observations from a re-analysis of the deposited data

How the results depend on the processing

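The 7 genes kept the sign of their difference in all 15 alternatives that gave a value (14 for Siglec1, Cd22 and Ccr3, which a filter at a mean CPM of 5 removes). For Siglecf, with 0 reads in every Cxcr4-labelled library, that sign was fixed in advance. The genes were picked with these differences known, so the kept signs support nothing about the groups. The count of genes called was 0 in the reported fit and in every alternative but DESeq2, which called 13 (5 higher and 8 lower in Bmal1-labelled libraries). Leaving out 1 library at a time gave 0 calls each time, and a lone Bmal1-labelled library is then assumed to vary like the other group. With a pseudocount of 5 the difference of Siglecf was 2.32 and that of Siglec1 0.80, and with edgeR they were 9.47 and 5.55. The median over all genes was 0.107 as reported and ran from -0.099 with DESeq2 to 0.198 without Cxcr4-labelled 3. On the recovered reads edgeR and DESeq2 each gave 3 of 13 neutrophil markers a positive difference, against 9 of 13 as reported. A fitted difference for a gene at 0 in a group depends on the pseudocount or prior and is no bound. The replicate block also gave 0 calls. Both groups hold a library 2 and a library 3, and deviations of same-numbered libraries correlated over 14632 genes at 0.284 and 0.388. No label ties a number to a mouse or day, and with 2 pairs this does not establish a pairing. Depth limits Siglecf, Siglec1, Cd22 and Ccr3 most in Cxcr4-labelled 1, where 3 reads equal 6.46.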
